A study of Rattus norvegicus with 4 samples.

Results

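Solute carriers are the large superfamily of membrane proteins that move sugars, amino acids, ions, metals, nucleotides and vitamins across the plasma membrane and the membranes of organelles. Most work as exchangers or cotransporters that draw on ion gradients, and others let their substrate pass down its own gradient. In oligodendrocytes, the glia that wrap axons in myelin, they take up the substrates of membrane synthesis and hand metabolites to axons. The genes described here are the rows of the deposited table whose symbol has the form Slc, a family number, a letter and a member number, and whose mean over the 4 libraries was at least 100. Of 14410 genes listed, 250 had such a symbol and 52 of these had a lower mean. Another 8 were left out by name, of which 7 had a mean of at least 100, so that 191 remained. The name and the mean over both groups chose them, so a gene near the limit could enter through the group where it was higher. Slc43a1 and Slc5a11 did so, with means of 77.5 and 89.5 in ctrl and 146 and 116 in Phf8oe.

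RNA-seq was done on the CG4 line, rat oligodendrocyte progenitor cells that can be driven to differentiate. Wild-type cells had been transduced with a CAG-IRES-GFP retrovirus (the ctrl group) or a CAG-Phf8-IRES-GFP retrovirus (the Phf8oe group), so GFP is shared by both groups and Phf8, a histone lysine demethylase, is added in one. GFP-positive cells were sorted, expanded and kept in differentiating medium for 3 days, and each group held 2 biological replicates of this single line. The labels do not tell if replicates stem from separate transductions, so p-values measure only the spread between these 4 preparations. The values are normalized read counts per gene, not per length, and are compared between libraries and not between genes. The library totals lay between 39945215 and 41149255, and the reads behind them were estimated at between 28400000 and 47800000.

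Phf8 itself stood at 2026 and 2205 in ctrl and at 5650 and 10796 in Phf8oe (log2 fold change 1.89, SE 0.35, adjusted p = 0.0631). All 10 lineage markers looked for were present, among them Sox10 and Olig2, and they summed to 481149 and 476338 in ctrl and to 728996 and 671981 in Phf8oe; 4 of them rose and Pdgfra fell. Of 7 astrocyte markers 6 were measured, summing to 109183 and 117746 in ctrl and 58545 and 60047 in Phf8oe, where Gfap fell and Aldh1l1 and Slc1a3 rose. Of 7 neuronal markers 6 were measured, none passing, with sums of 12975 and 9512 against 6141 and 6762. Measured too were 2 of 6 microglial, 1 of 6 fibroblast and pericyte, 4 of 4 Schwann cell and 1 of 4 endothelial markers, which summed to at most 3803 a list in any library; Col1a1 and Egr2 fell. The part of these markers in the results below was not tested, and in bulk RNA fewer cells of a type and less RNA per cell cannot be told apart.

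The question put to these genes is which transport functions differ in differentiating oligodendroglial cells when Phf8 is raised. Of the 191 solute carrier genes, 7 rose in Phf8oe, 14 fell and 170 did not pass limma's test at a Benjamini-Hochberg adjusted p under 0.05 over all 14368 genes tested. The 21 genes are 11.0% of the members. The same rule called 7.64% of all tested genes, 2.99% higher and 4.65% lower, and 8.70% of the genes with a mean of at least 100. Of the members, 79 lay above (50.4% of all tested genes did) and 112 below a log2 fold change of 0, with a median of -0.05 against 0.0 for all tested genes; the members' median was 0.02 without ctrl replicate 1, -0.11 without Phf8oe replicate 1 and 0.04 without Phf8oe replicate 2. The largest falls that passed were those of the sulfate carrier gene Slc26a2 and the sugar phosphate carrier gene Slc37a1, 2.02-fold and 2.12-fold, and the largest rise was that of the pyrimidine nucleotide carrier gene Slc25a33, 1.62-fold.

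Most members differed by less than 1.5-fold. Of 191, 3 differed at least 2-fold and 21 at least 1.5-fold (11.0%, against 14.1% of all tested genes and 9.38% of those with a mean of at least 100). The groups did not overlap in 103 members (53.9%, against 57.6% of all tested genes), 51 of them higher and 52 lower in Phf8oe (28.9% and 28.7% of all tested genes). The median gap between replicates was 0.14 on the log2 scale in ctrl and 0.19 in Phf8oe. Leaving out a ctrl library, which leaves the spread to be estimated from the Phf8oe pair, ended most calls. Without ctrl replicate 1 none of the 191 passed in limma, with 7 higher and 17 lower at an unadjusted p under 0.05, and without ctrl replicate 2 only Slc26a2 and Slc37a1 passed. Without ctrl replicate 1 and without ctrl replicate 2 they were -1.02 and -1.01 for Slc26a2, -0.81 and -0.91 for Slc41a2 and 0.66 and 0.72 for Slc25a33. Without Phf8oe replicate 1 the counts were 7 higher and 27 lower, Slc19a2 at -0.46 (adjusted p = 0.0829) and Slc39a11 at 0.42 (adjusted p = 0.052) no longer passing; without Phf8oe replicate 2 they were 20 and 17, and Slc30a7 at -0.46 (adjusted p = 0.0518) did not pass. All 21 kept their direction in every alternative run, but most of these runs could not have changed it. In none of the 21 did the groups overlap, so leaving out a library could not reverse a gene. For a gene that passed, groups that do not overlap are thus no further evidence.

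**Figure D1:**
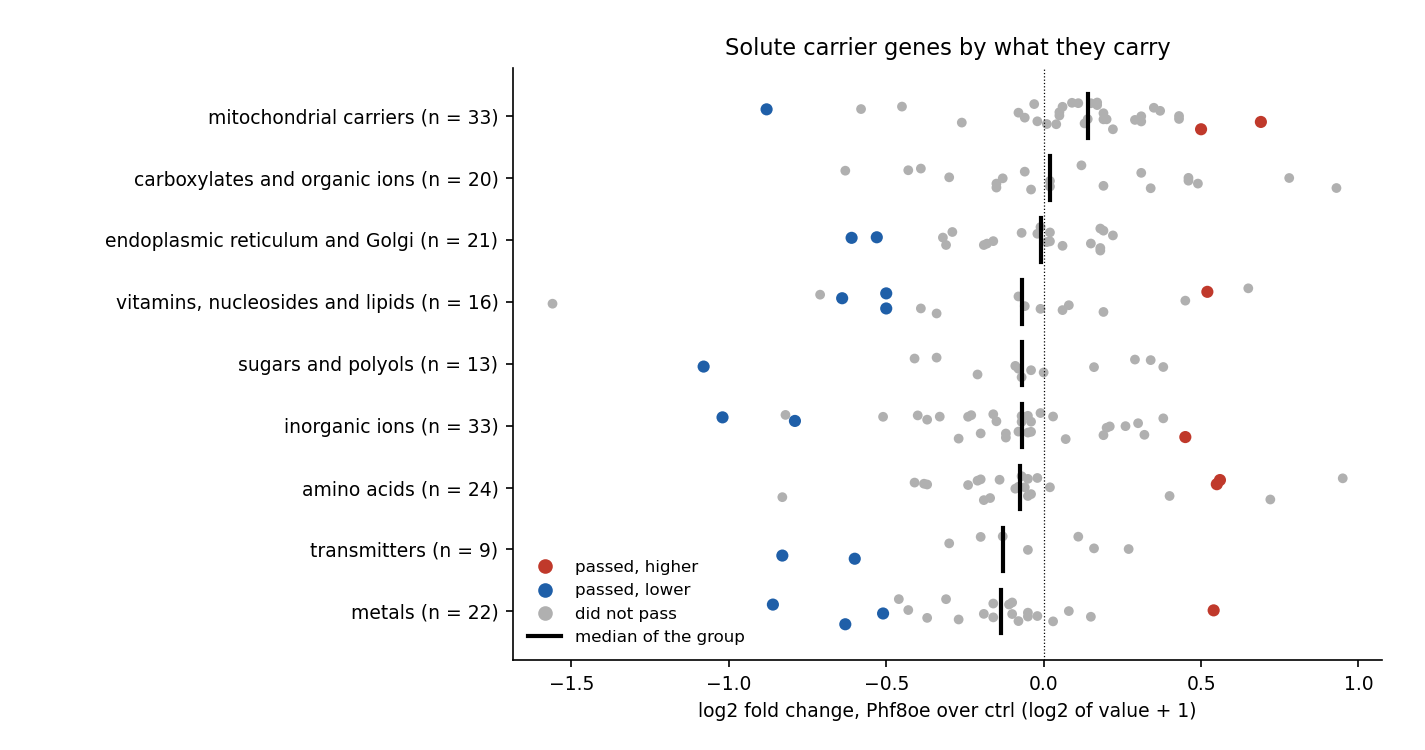
Log2 fold change of each of the 191 solute carrier genes, Phf8oe over ctrl, grouped by what the family carries; each point is a gene, red and blue points passed the test (7 higher, 14 lower) and the black bar is the median of the group. The median was highest in mitochondrial carriers, at 0.14, and lowest in metal and transmitter carriers, at -0.13. All groups were formed by family, so not every gene in a group need carry what the group is named for.

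**Figure D2:**
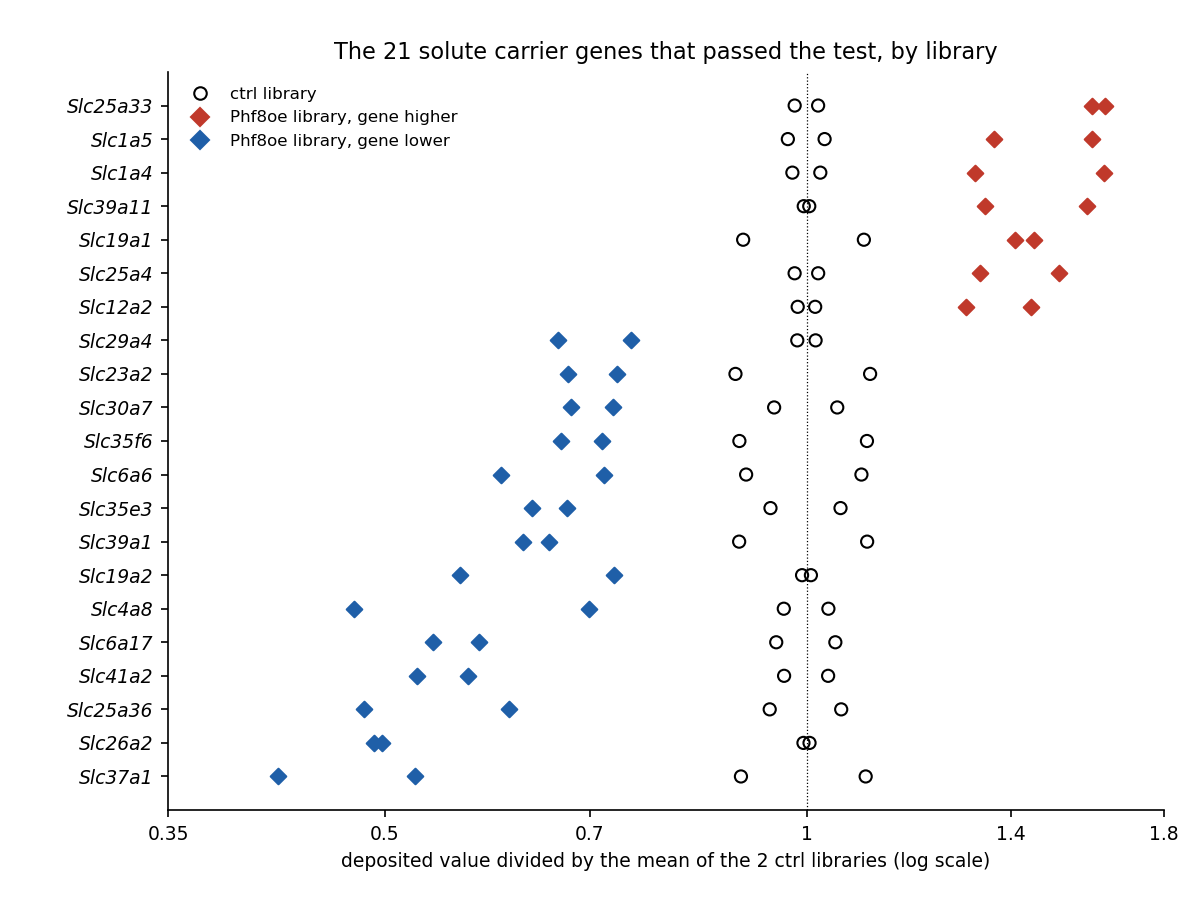
The 21 genes that passed, in each library: the deposited value divided by the mean of the 2 ctrl libraries, on a log scale, with open circles for ctrl and diamonds for Phf8oe. For each gene both diamonds lie on one side of both circles, which also held for 57.6% of all tested genes.

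In 3 families, Slc19, Slc25 and Slc39, related genes moved in opposite directions, and the promoters of these genes are shown where the RefSeq table held them. The promoter of Slc1a4, whose relative Slc1a5 rose with it, is shown with them for its amino acid response element, a choice made with its motifs known. RefSeq promoters of build GRCr8, running from 250 bases before to 50 bases after the gene start, were matched to 146 of the 191 members, among them 6 of the 7 that rose and 12 of the 14 that fell. They were searched on both strands for TGANTCA (the AP-1 site), TGACGTCA (the cyclic AMP response element), TGATGNAA (the amino acid response element), CACGTG (an E-box), GGGCGG (the GC box) and CCAAT (the CCAAT box), which are printed in capitals in the orientation found. Each sequence is 300 bases long, 5′ to 3′ as the table gives it.
Slc1a4, chr14:98761513-98761812, minus strand: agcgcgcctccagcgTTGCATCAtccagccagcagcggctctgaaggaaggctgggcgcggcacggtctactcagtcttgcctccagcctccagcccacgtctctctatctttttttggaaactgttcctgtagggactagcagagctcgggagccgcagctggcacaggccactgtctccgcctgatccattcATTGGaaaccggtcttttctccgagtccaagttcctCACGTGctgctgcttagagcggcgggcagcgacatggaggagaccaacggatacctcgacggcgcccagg
Slc25a33, chr5:165502924-165503223, minus strand: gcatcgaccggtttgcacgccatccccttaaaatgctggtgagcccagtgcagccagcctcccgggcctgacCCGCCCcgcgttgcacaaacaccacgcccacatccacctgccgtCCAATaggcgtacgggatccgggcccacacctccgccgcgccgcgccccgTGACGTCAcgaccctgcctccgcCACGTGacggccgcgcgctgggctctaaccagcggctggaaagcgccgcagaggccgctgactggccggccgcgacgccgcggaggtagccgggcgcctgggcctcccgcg
Slc19a1, chr20:11600887-11601186, minus strand: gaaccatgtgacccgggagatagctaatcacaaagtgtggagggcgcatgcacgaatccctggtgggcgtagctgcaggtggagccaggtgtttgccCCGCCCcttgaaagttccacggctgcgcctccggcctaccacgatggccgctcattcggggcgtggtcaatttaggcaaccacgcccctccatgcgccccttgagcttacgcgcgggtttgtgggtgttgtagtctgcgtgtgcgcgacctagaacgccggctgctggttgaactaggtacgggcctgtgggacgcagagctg
Slc19a2, chr13:79134868-79135167, plus strand: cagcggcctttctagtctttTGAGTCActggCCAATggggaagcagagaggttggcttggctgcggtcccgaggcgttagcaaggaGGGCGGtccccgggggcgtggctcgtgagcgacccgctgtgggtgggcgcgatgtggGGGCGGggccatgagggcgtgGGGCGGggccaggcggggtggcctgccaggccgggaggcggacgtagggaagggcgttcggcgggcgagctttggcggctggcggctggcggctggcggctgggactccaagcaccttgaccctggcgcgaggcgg
Slc39a11, chr10:99110407-99110706, minus strand: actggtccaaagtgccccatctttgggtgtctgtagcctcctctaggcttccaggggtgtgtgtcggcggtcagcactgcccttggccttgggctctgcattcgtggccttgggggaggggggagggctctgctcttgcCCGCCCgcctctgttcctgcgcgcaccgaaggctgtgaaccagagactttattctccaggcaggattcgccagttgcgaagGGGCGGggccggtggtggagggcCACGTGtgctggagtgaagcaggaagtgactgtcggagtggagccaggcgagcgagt
Slc39a1, chr2:178000869-178001168, plus strand: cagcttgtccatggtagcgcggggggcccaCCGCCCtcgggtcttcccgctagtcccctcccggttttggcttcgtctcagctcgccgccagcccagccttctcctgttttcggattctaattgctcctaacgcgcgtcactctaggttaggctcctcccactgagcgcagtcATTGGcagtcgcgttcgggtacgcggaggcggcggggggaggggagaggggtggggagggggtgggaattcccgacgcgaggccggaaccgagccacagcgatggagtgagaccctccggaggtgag

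The first 3 and Slc39a11 are from genes that rose, Slc19a2 and Slc39a1 from genes that fell. The E-box CACGTG stood in the promoters of Slc1a4, Slc25a33 and Slc39a11, that is in 3 of the 6 matched genes that rose, and in 1 of the 12 that fell. It was found in 13.7% of the members' promoters, in 9.27% of those of tested genes and in 6.65% of all 27457 promoters of this length in the table. The amino acid response element TGATGNAA was found in Slc1a4 alone among the 18 matched genes that passed, and in 3.42% of members, 1.93% of tested genes and 3.82% of all promoters. Slc25a33 held the cyclic AMP response element, present in 4.11% of members, 3.17% of tested genes and 1.91% of all promoters. The AP-1 site stood in 2 promoters of genes that fell, Slc19a2 and Slc6a17, and in none of the 6 that rose, against 6.85% of members, 4.71% of tested genes and 7.33% of all promoters. GC boxes were present in 66.4% of members, 62.7% of tested genes and 34.9% of all promoters, and the CCAAT box in 40.4%, 37.8% and 37.7%. The median GC content was 62.7% in members, 61.0% in tested genes and 52.3% in all promoters, so that the members lay close to the tested genes. These matches describe letters in a short window and were not tested.

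Family Slc25, called mitochondrial carriers here, holds mostly carriers that exchange metabolites and nucleotides across the inner mitochondrial membrane. Its members lay mostly higher in Phf8oe. Of 33 members of family Slc25, 2 rose, 1 fell and 30 did not pass (9.09% passed, near the 7.64% of all tested genes). Of the 33, 25 lay above 0 and 8 below, and the median log2 fold change was 0.14. Of all tested genes, 50.4% lay above 0. The median kept its sign in every alternative, between 0.1 and 0.18. The family's share of all normalized counts was 0.244% and 0.245% in ctrl and 0.26% and 0.288% in Phf8oe. Transcripts of the mitochondrial genome took 3.68% and 3.62% in ctrl and 5.34% and 4.76% in Phf8oe, and their relation to the carrier genes was not tested.

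Slc25a33 and Slc25a36 encode the carriers that import pyrimidine nucleotides into mitochondria, and they moved in opposite directions. Slc25a33 stood at 687 and 714 in ctrl and at 1120 and 1145 in Phf8oe (log2 fold change 0.69, SE 0.12, adjusted p = 0.0126). Slc25a36 stood at 7764 and 6903 in ctrl and at 3543 and 4494 in Phf8oe (log2 fold change -0.88, SE 0.13, adjusted p = 0.00872). For neither gene did the groups overlap, and the replicates of Slc25a33 were close together. The ratio of Slc25a33 to Slc25a36 counts was 0.0885 and 0.103 in ctrl and 0.316 and 0.255 in Phf8oe; the pair was chosen after its values were seen and the ratio was not tested.

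Slc25a4, which encodes an ADP/ATP carrier that exports ATP from mitochondria, rose. Its ctrl libraries stood at 18063 and 17377 and its Phf8oe libraries at 23568 and 26822 (log2 fold change 0.50, SE 0.11, adjusted p = 0.0289). Its relative Slc25a5 stood at 9417 and 9172 against 10757 and 12999 and did not pass (log2 fold change 0.35, adjusted p = 0.098); reads of such carriers can also fit processed pseudogenes. The phosphate carrier gene Slc25a3 stood at 14331 and 14769 against 15980 and 17876 (log2 fold change 0.22, adjusted p = 0.229). Slc25a24, an ATP-magnesium and phosphate carrier gene, stood at 950 and 846 against 515 and 698 without passing (log2 fold change -0.58, adjusted p = 0.066).

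Metal carriers lay mostly lower. Of 22 members, which move zinc, copper, magnesium and iron, 3 fell, 1 rose and 18 did not pass (18.2% passed, against 7.64% of all tested genes). Of the 22, 18 lay below 0 and 4 above, and the median log2 fold change was -0.13. The median stayed between -0.2 and -0.09 in every alternative, the lowest without Phf8oe replicate 1. Slc41a2, a magnesium transporter gene, stood at 1475 and 1372 in ctrl and at 816 and 750 in Phf8oe (log2 fold change -0.86, SE 0.12, adjusted p = 0.00584). Its relatives Slc41a1 and Slc41a3 stood at log2 fold changes of -0.37 and -0.16 and did not pass.

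Zinc enters the cytosol through the Slc39 family and leaves it, outward or into organelles, through the Slc30 family. The importer gene Slc39a1 stood at 15687 and 12710 in ctrl and at 9304 and 8907 in Phf8oe (log2 fold change -0.63, SE 0.12, adjusted p = 0.019). Slc30a7, which loads zinc into the Golgi, stood at 1055 and 951 against 730 and 681 (log2 fold change -0.51, SE 0.13, adjusted p = 0.0435). Slc39a11, another zinc carrier gene, moved the other way, with 1100 and 1110 against 1752 and 1482 (log2 fold change 0.54, SE 0.12, adjusted p = 0.0312). The groups were apart in all 3 genes, and the ratio of Slc39a11 to Slc39a1 counts was 0.0701 and 0.0873 in ctrl and 0.188 and 0.166 in Phf8oe, untested and chosen after the values were seen. Slc39a11 overlaps Cog1 and Sstr2 in the RefSeq annotation, whose log2 fold changes were 0.1 and 1.38 without passing; no source used here tells if the counting used strand. Over the 16 members of both zinc families, 13 lay below 0 and the median was -0.1. Slc39a7, which releases zinc from the endoplasmic reticulum, had the largest counts among metal carriers, 16600 and 15401 against 16101 and 13743, and did not pass (log2 fold change -0.10, adjusted p = 0.607).

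**Figure D3:**
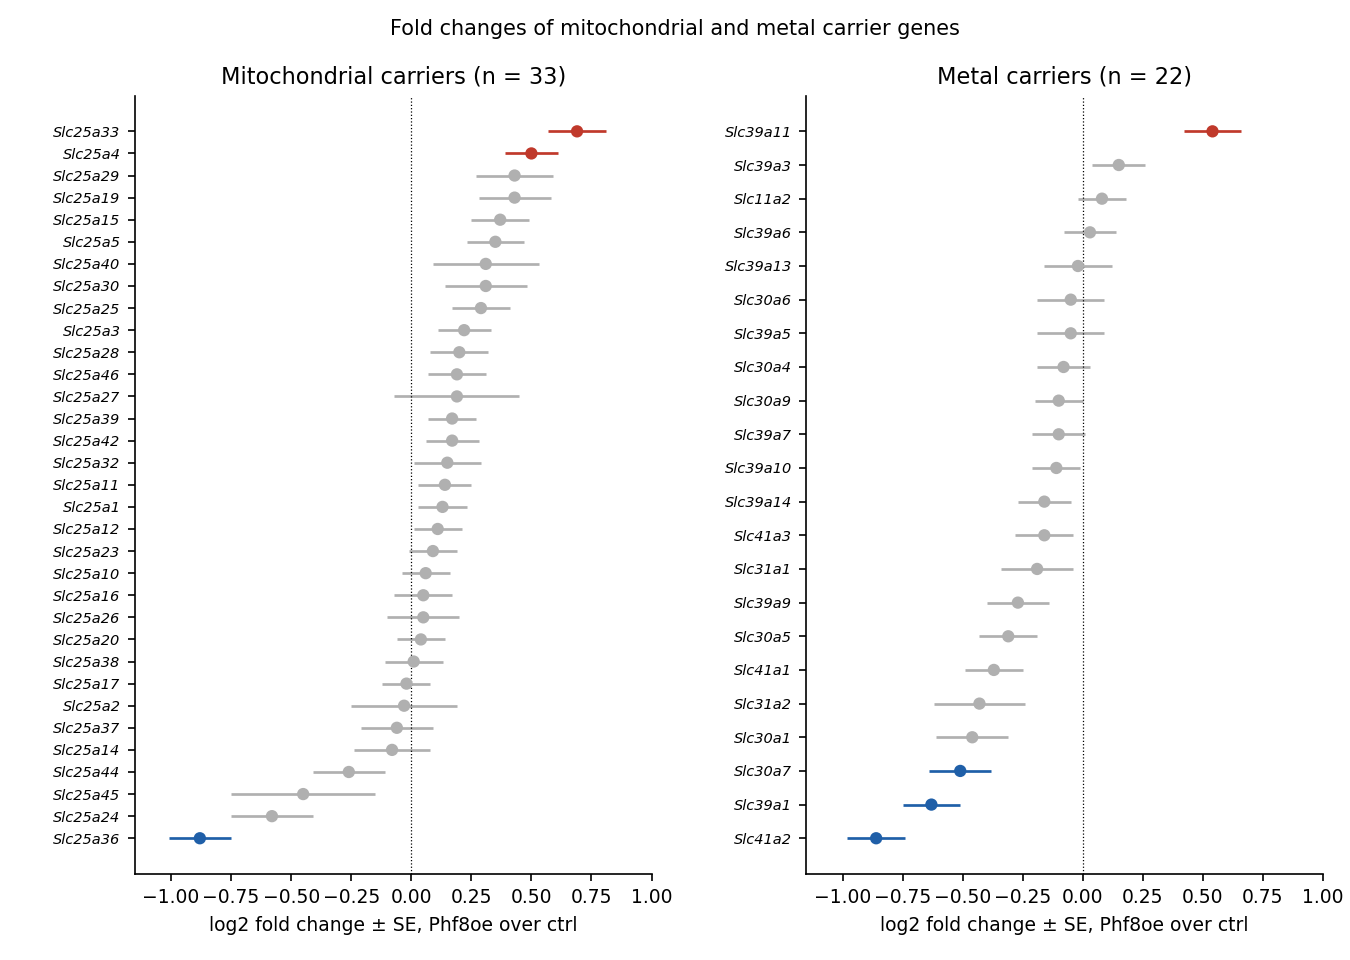
Log2 fold change with its SE, Phf8oe over ctrl, of the 33 mitochondrial carrier genes (left) and the 22 metal carrier genes (right), sorted by value; red and blue genes passed the test and grey ones did not. In the left panel 25 genes lie above 0, in the right panel 4.

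Among amino acid carriers, the neutral amino acid exchangers Slc1a4 and Slc1a5 rose together. Slc1a4, which carries alanine, serine and cysteine, stood at 2161 and 2064 in ctrl and at 3446 and 2787 in Phf8oe (log2 fold change 0.55, SE 0.12, adjusted p = 0.0309). Slc1a5, a glutamine exchanger, stood at 1349 and 1433 against 2223 and 1892 (log2 fold change 0.56, SE 0.12, adjusted p = 0.0264). In both genes the Phf8oe libraries were the higher and the groups did not overlap, as in every member that passed. The third member of this family, Slc1a1, which carries glutamate and cysteine, had far larger counts and did not pass, at 24568 and 20608 against 21786 and 18288 (log2 fold change -0.17, adjusted p = 0.436). Slc1a3, one of the 8 genes left out by name, rose 1.47-fold. The other 7 did not pass. The subunits of the large neutral amino acid exchanger Slc3a2 and Slc7a5 and the cystine exchanger subunit Slc7a11 had log2 fold changes of 0.08, 0.21 and 0.35. Those of Slc2a1 and Slc16a1 were -0.18 and 0.08. The widest were those of 2 genes with low counts and no overlap of the groups. Slc1a2 lay at -1.02 (30 and 58 in ctrl, 16 and 25 in Phf8oe). Slc16a3 lay at 0.93 (81 and 157 in ctrl, 233 and 200 in Phf8oe).

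Over the 24 amino acid carriers 2 rose, none fell and 22 did not pass (8.33% passed, near the 7.64% of all tested genes). Of the 24, 18 lay below 0 (median -0.07, but -0.12 without ctrl replicate 2, -0.21 without Phf8oe replicate 1 and 0.04 without Phf8oe replicate 2). The sodium-coupled carrier gene Slc38a2 stood at 21325 and 18426 in ctrl and at 19080 and 18227 in Phf8oe (log2 fold change -0.09, adjusted p = 0.658), so the groups overlapped. Slc38a3, a glutamine carrier gene, was higher in both Phf8oe libraries, at 1019 and 1289 against 2242 and 1584, but did not pass (log2 fold change 0.72, SE 0.19, adjusted p = 0.0725). Slc43a1, with counts of 57 and 98 against 144 and 147, had the highest log2 fold change of any member, 0.95, and did not pass (adjusted p = 0.0777). The lowest of the group was Slc7a14, at 1703 and 1120 against 587 and 1032 (log2 fold change -0.83, adjusted p = 0.242), with wide gaps within both groups.

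Of the 9 transmitter carriers 2 fell and none rose (22.2% passed, against 7.64% of all tested genes). This small group was formed by family, so not every gene in it need carry a transmitter. Slc6a17, a carrier of neutral amino acids into synaptic vesicles, stood at 774 and 853 in ctrl and at 475 and 440 in Phf8oe (log2 fold change -0.83, SE 0.14, adjusted p = 0.0116). Slc6a6, which takes up taurine, stood at 11894 and 9840 against 7785 and 6580 (log2 fold change -0.60, SE 0.13, adjusted p = 0.0299). Both were lower in each Phf8oe library than in either ctrl library. The creatine carrier gene Slc6a8, in the same family, stood at 7742 and 6753 against 7939 and 7695 and did not pass (log2 fold change 0.11, adjusted p = 0.539). The median over the 9 genes was -0.13, but -0.04 without ctrl replicate 2, -0.23 without Phf8oe replicate 1 and 0.13 without Phf8oe replicate 2.

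Among 33 carriers of inorganic ions 2 fell and 1 rose (9.09% passed, near the 7.64% of all tested genes). Of the 33, 23 lay below 0, with a median of -0.07 (-0.22 without Phf8oe replicate 1 and 0.1 without Phf8oe replicate 2). Slc26a2 takes up sulfate, which cells use to sulfate proteoglycans and lipids, and had the smallest p of any member. It stood at 16845 and 17014 in ctrl and at 8425 and 8314 in Phf8oe (log2 fold change -1.02, SE 0.10, adjusted p = 0.00147). Both pairs of replicates nearly coincided, and with 1 library left out the log2 fold change stayed between -1.03 and -1.01. Slc35b2, which brings activated sulfate into the Golgi, stood at 8594 and 7722 against 8737 and 7855 and did not pass (log2 fold change 0.02, adjusted p = 0.912). The 4 other Slc26 members below 0 lay between -0.20 and -0.01 without passing.

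Slc12a2, the sodium, potassium and chloride cotransporter that loads cells with chloride, rose, with 2674 and 2752 in ctrl against 3922 and 3526 (log2 fold change 0.45, SE 0.10, adjusted p = 0.0325). Slc12a4, Slc12a5 and Slc12a7, which encode potassium and chloride cotransporters, did not pass. Slc12a4 stood at a log2 fold change of -0.07, Slc12a5 at -0.05 and Slc12a7 at 0.21. Slc4a8, a sodium-driven bicarbonate exchanger that raises cytosolic pH, fell, with 1643 and 1768 in ctrl against 1193 and 810 (log2 fold change -0.79, SE 0.18, adjusted p = 0.0445). Its Phf8oe libraries were apart from each other, and the log2 fold change was -0.51 without Phf8oe replicate 2 and -1.07 without Phf8oe replicate 1. The anion exchanger gene Slc4a2 stood at 4557 and 3024 against 1845 and 2404, without overlap, and did not pass (log2 fold change -0.82, SE 0.23, adjusted p = 0.0989).

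Vitamin, nucleoside and lipid carriers held 3 genes that fell and 1 that rose among 16 (25.0% passed, against 7.64% of all tested genes). The group's median was -0.07, but 0.03 without ctrl replicate 1, -0.18 without ctrl replicate 2, -0.11 without Phf8oe replicate 1 and -0.16 without Phf8oe replicate 2. The folate carrier gene Slc19a1 and the thiamine carrier gene Slc19a2 belong to the same family and went in opposite directions. Slc19a1 stood at 1084 and 1322 in ctrl and at 1748 and 1695 in Phf8oe (log2 fold change 0.52, SE 0.13, adjusted p = 0.0387). Slc19a2 stood at 693 and 683 against 389 and 501 (log2 fold change -0.64, SE 0.16, adjusted p = 0.0448). The ratio of Slc19a1 to Slc19a2 counts was 1.56 and 1.94 in ctrl and 4.49 and 3.38 in Phf8oe, again a pair chosen after its values were seen and not tested.

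**Figure D4:**
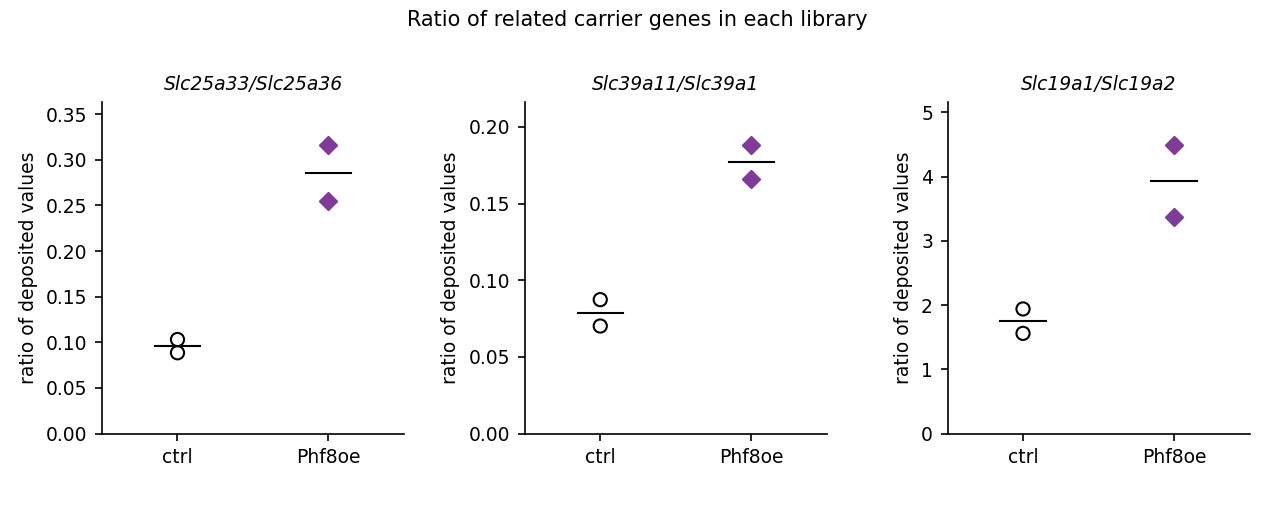
Ratio of the deposited values of 3 pairs of related carrier genes in each library, with circles for ctrl, diamonds for Phf8oe and bars for the group means. In each pair both Phf8oe ratios lie above both ctrl ratios; the pairs were chosen for this pattern.

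Slc23a2, which takes up ascorbate, stood at 2820 and 2260 in ctrl and at 1861 and 1715 in Phf8oe (log2 fold change -0.50, SE 0.13, adjusted p = 0.0486), close to the threshold. Slc29a4, a carrier of monoamines at the plasma membrane, stood at 3565 and 3674 against 2712 and 2407 (log2 fold change -0.50, SE 0.10, adjusted p = 0.026). In neither did the groups overlap. Slc44a1, a choline carrier gene, had the largest counts of all members, 56785 and 49630 in ctrl and 44036 and 39842 in Phf8oe, and did not pass (log2 fold change -0.34, SE 0.12, adjusted p = 0.106). Its relatives Slc44a2 and Slc44a5 also lay below 0 with groups apart and without passing, at log2 fold changes of -0.39 and -0.71. The lowest value of any member was that of the urea carrier gene Slc14a1, at 1320 and 1284 in ctrl and 293 and 663 in Phf8oe. Its log2 fold change of -1.56 (SE 0.43) did not pass (adjusted p = 0.119), the Phf8oe libraries lying far from each other. Slc27a6, in the same role group, stood at 115 and 158 against 264 and 171 and did not pass (log2 fold change 0.65, adjusted p = 0.167).

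**Figure D5:**
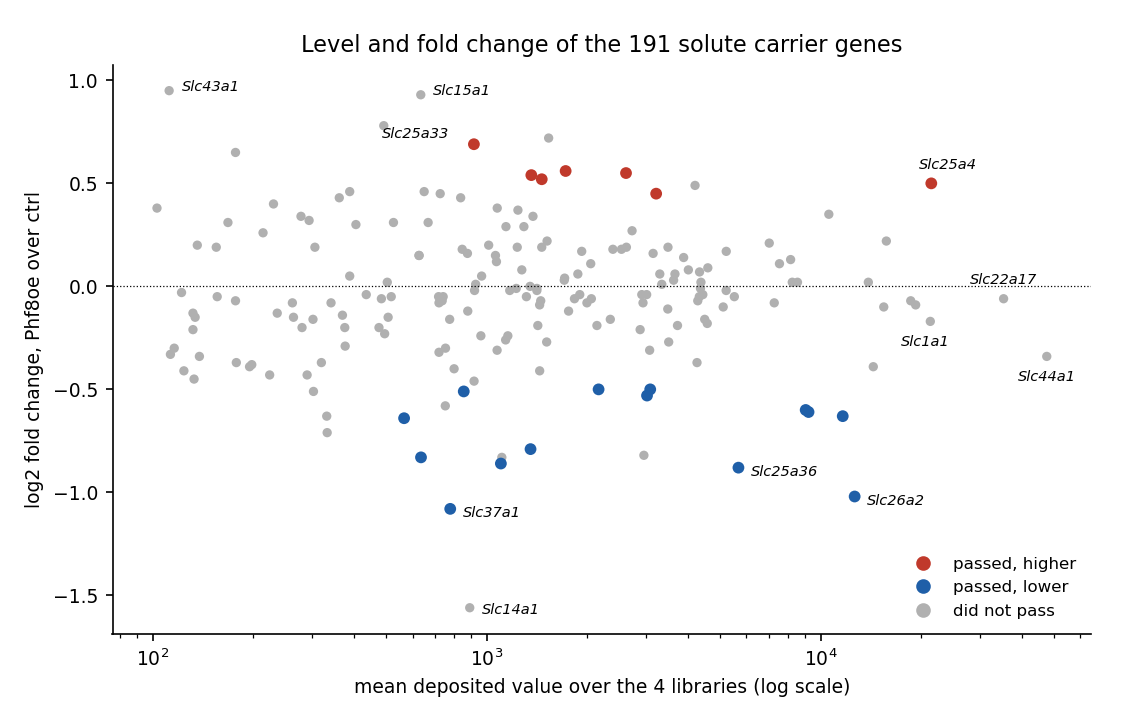
Log2 fold change of the 191 solute carrier genes against their mean deposited value over 4 libraries, on a log axis; red and blue genes passed the test. The gene with the largest counts, Slc44a1, lies at -0.34, and Slc14a1, at -1.56, did not pass.

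Among 13 carriers grouped under sugars and polyols 1 fell (7.69% passed, near the 7.64% of all tested genes). This group too was formed by family, so not every gene in it need carry a sugar or polyol. Slc37a1 exchanges glucose 6-phosphate for phosphate across the endoplasmic reticulum membrane, and it stood at 1165 and 949 in ctrl and at 443 and 555 in Phf8oe (log2 fold change -1.08, SE 0.16, adjusted p = 0.00795). Slc37a1 overlaps Rsph1 in the RefSeq annotation, which fell too but with far fewer counts, 137 and 129 against 42 and 61. The related genes Slc37a3 and Slc37a4 stood at log2 fold changes of -0.07 and -0.04 and did not pass. The inositol carrier gene Slc2a13 stood at 3311 and 2733 against 2636 and 3078, with groups that overlapped (log2 fold change -0.08, adjusted p = 0.737). The median over the group was -0.07, but -0.01 without ctrl replicate 1, -0.11 without Phf8oe replicate 1 and 0.03 without Phf8oe replicate 2.

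Among the carriers of the endoplasmic reticulum and Golgi are those that bring nucleotide sugars to the enzymes that build glycans. This group was formed by family, from 20 Slc35 members and Slc33a1, so not every gene in it need act in these organelles. Of its 21 members 2 fell (9.52%, against 7.64% of all tested genes that passed) and none rose. Slc35e3 stood at 11759 and 10480 in ctrl and at 7500 and 7078 in Phf8oe (log2 fold change -0.61, SE 0.10, adjusted p = 0.0131). Slc35f6 stood at 3948 and 3201 against 2553 and 2386 (log2 fold change -0.53, SE 0.12, adjusted p = 0.035). Both were lower in each Phf8oe library than in either ctrl library. The 12 members of the branches a to d, which include the nucleotide sugar carriers and the sulfate donor carrier Slc35b2, lay between -0.32 and 0.22 and did not pass. The group's median was -0.01, with 10 genes above and 11 below 0, and 0.05 without ctrl replicate 1 or without Phf8oe replicate 2, -0.07 without ctrl replicate 2 and -0.09 without Phf8oe replicate 1.

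None of the 20 carriers of carboxylates and organic ions passed, against 7.64% of all tested genes. The groups did not overlap in 8 higher and 4 lower genes, 60.0% of them, near the 57.6% of all tested genes. The members with the largest counts were Slc22a17, the lipocalin receptor, at 37882 and 33724 against 40742 and 28955, and Slc22a23, at 14076 and 13267 against 16888 and 11375. In both the Phf8oe libraries lay on either side of the ctrl libraries. The peptide carrier gene Slc15a1 stood at 348 and 505 against 1116 and 571 (log2 fold change 0.93, SE 0.38, adjusted p = 0.216) and Slc10a4 at 329 and 378 against 795 and 464 (log2 fold change 0.78, adjusted p = 0.11). Phf8oe replicate 1 was the higher of the pair in each. Slc16a11 stood at 399 and 405 against 292 and 232 (log2 fold change -0.63, adjusted p = 0.0641). The group's median was 0.02, but 0.06 without ctrl replicate 1, -0.12 without Phf8oe replicate 1 and 0.23 without Phf8oe replicate 2.

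Members outside the threshold were not all far from it: 12 had an adjusted p between 0.05 and 0.1, 4 higher and 8 lower. At the lower limit of the mean, the members with the lowest means were Slc5a11 (103), Slc43a1 (112) and Slc9a7 (113), and the genes just under it were Slc35d3 (86.2), Slc30a3 (80.5) and Slc25a51 (77.2).

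Genes that serve solute carriers or share their work were taken from lists of known partners. A list of 17 genes held mainly kinases, scaffolds and chaperones, with the ubiquitin ligase gene Nedd4l and the transcription factor gene Atf4. Of the 17, 3 fell (17.6%, against 7.64% of all tested genes that passed) and none rose. Their median log2 fold change was -0.17, but -0.09 without ctrl replicate 1, -0.05 without ctrl replicate 2 and -0.11 without Phf8oe replicate 2. Nedd4l, a ubiquitin ligase that removes channels and carriers from the membrane, stood at 1916 and 1812 in ctrl and at 1111 and 1117 in Phf8oe (log2 fold change -0.74, SE 0.11, adjusted p = 0.00703). Sgk1, a kinase that restrains that ligase, stood at 9987 and 8552 against 5897 and 4729 (log2 fold change -0.81, SE 0.13, adjusted p = 0.0124). Both partners were thus lower in each Phf8oe library. The scaffold gene Slc9a3r2 fell 1.57-fold, while its paralog Slc9a3r1 stood at 1735 and 1914 against 2435 and 2350, higher without overlap, and did not pass (log2 fold change 0.39, adjusted p = 0.0557).

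The lists also held pumps that make the gradients which solute carriers use, ABC transporters and organic anion carriers of the Slco family. Of 11 sodium and calcium pump genes 1 passed (9.09%, against 7.64% of all tested genes), the sodium pump subunit gene Atp1b2. It stood at 41190 and 43523 in ctrl against 22550 and 22141 in Phf8oe (log2 fold change -0.92). Of the 11, 36.4% differed at least 1.5-fold, against 14.1% of all tested genes. Of 17 genes of the vesicular and lysosomal proton pump 1 passed (5.88%), Atp6ap2, falling 1.37-fold. Of 24 ABC transporters 1 passed (4.17%), the cholesterol exporter Abca1, falling 1.66-fold. None of 3 measured Slco genes passed. The median log2 fold change was -0.07 for the sodium and calcium pumps, but -0.18 without ctrl replicate 2, -0.20 without Phf8oe replicate 1 and -0.17 without Phf8oe replicate 2. It was -0.09 for the proton pump, and between -0.14 and 0.01 with 1 library left out, the highest without Phf8oe replicate 1. For the ABC transporters it was -0.08, and -0.05 without Phf8oe replicate 2. Leaving out a ctrl library ended most calls among the 7 genes of these lists and of the genes left out by name that passed. Their direction could not change in these runs, as the groups did not overlap in any of the 7.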

How the data were processed

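The authors deposited 1 table of normalized counts per gene for 4 libraries, treated here as a signal that is not a raw count although the labels call it raw. The submitters' processing notes name STAR 2.5.2b, Trimmomatic 0.36, bcl2fastq 2.20 and DESeq2, and Rnor_6.0 and rn6 as builds; how genes were counted, on which annotation and with what use of strand is not given in the sources. In the deposited values of Phf8oe replicate 2, 85 of 85 whole numbers between 10 and 300 that scaled and rounded reads would skip were absent. From the spacing, 1 read was worth between 0.8445 (ctrl replicate 1) and 1.4159 (Phf8oe replicate 2). Each of the 4 sample files equalled its column.

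Genes that reached 10 in 2 or more libraries (14368 of 14410, with all 191 members) were tested on log2(value + 1) with limma 3.58.1 (R 4.3.3), which understates changes of low genes. The variance followed the mean level, moderation was robust, tests were two-sided with 2 residual degrees of freedom, with Benjamini-Hochberg adjustment over all tested genes. The procedure was tested on simulated data. Named were the members that passed, the 10 with the largest values, the 2 largest of each role group, the 5 highest and 5 lowest that did not pass, the 3 on either side of the mean of 100, Phf8 and the genes left out by name; others were chosen after their values were seen. Members, lists and rules were chosen with earlier results of these data known. Alternatives covered variance moderation, limma-voom on estimated reads, pseudocounts, filters, scalings, replicate blocks, each library left out in turn and limma's treat at 1.5-fold. Gene overlaps came from RefSeq GRCr8, where all 191 members were placed and 36 overlapped another tested gene. Tables were made with pandas 2.3.3 and numpy 2.4.6 in Python 3.11.15, figures with matplotlib 3.10.9.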

Additional observations from a re-analysis of the deposited data

How the results depend on the processing

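Of the 191 solute carrier genes 7 passed higher and 14 lower, and 430 and 668 of all tested genes. Without robust moderation 4 members and 256 genes passed higher. With no variance trend 0 members and 0 genes passed in limma either way, while 12 members higher and 22 lower had an unadjusted p under 0.05, and limma-voom called 7 and 16 members. Against a 1.5-fold change 0 members passed either way, with 0 higher and 5 lower at an unadjusted p under 0.05, and 2 genes higher and 25 lower. Deviations of same-numbered libraries correlated at -0.13, a single value that cannot tell if the numbers pair the samples. With the replicate block 1 member passed higher and 8 lower (65 and 308 genes). A crossed pairing, added after the data were seen, gave 18 and 23 members (1056 and 1298 genes). Leaving out 1 library gave 0 to 20 members higher and 0 to 27 lower (1 to 927 and 19 to 1218 genes), with 0 without ctrl replicate 1, 2 lower without ctrl replicate 2, 27 lower without Phf8oe replicate 1 and 20 higher without Phf8oe replicate 2. In each such fit the spread comes from the group that keeps 2 libraries. The other pseudocounts, filters and total scaling kept both member counts within 1.5 times; upper quartile scaling gave 7 and 10 members, losing Slc4a8, Slc19a2, Slc23a2 and Slc30a7, and turned the split of all genes to 609 higher and 589 lower. No alternative reversed a gene that passed. The groups did not overlap in any member that passed, so leaving out a library could not do so. Phf8oe replicate 2 rests on the fewest reads, about 28400000.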
